A study of Mus musculus with 12 samples.

Results

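The 10 genes described here are major histocompatibility complex (MHC) class I genes of the mouse H2 region on chromosome 17: H2-K1, H2-D1, H2-Q1, H2-Q2, H2-Q4, H2-Q6, H2-Q7, H2-Q10, H2-T23 and the pseudogene H2-T-ps. They were picked by name from the 56748 genes of the deposited count table, after their counts in the 3 genotypes had been seen, so their levels and differences between genotypes are given as a description. Counts of these genes past the threshold stand beside the share of all genes and support nothing. Liver RNA was sequenced from 12 mice fasted for 24 h, 4 per genotype. The single KO (SKO) lacked Cpt2 in the liver, and the double KO (DKO) lacked Atf3 and Cpt2 there, so the Cpt2 deletion is common to both. The labels call the controls (WT) triple floxed for CPT1A, CPT1B and CPT2, whereas the study describes controls floxed for Atf3 and Cpt2 in its RT-qPCR, so the floxed Atf3 allele of the DKO may not have been in these controls. The liver deletions were made with Albumin-Cre, whose albumin promoter is active mainly in hepatocytes. The lines were C57BL6, and the floxed Atf3 allele was made from C57BL/6N stock. The labels give no age, sex, litter or batch, and nothing says more of the replicates than that they are separate samples.

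MHC class I molecules are heavy chains that pair with beta-2 microglobulin and show short peptides from inside the cell to T cells and natural killer cells. H2-K1 and H2-D1 encode the classical heavy chains, made by nearly all nucleated cells. The H2-Q and H2-T genes are nonclassical: H2-Q10 encodes a secreted chain made mainly by hepatocytes, the H2-Q7 product is the Qa-2 antigen, and H2-T23 encodes Qa-1, which is read by receptors of natural killer cells. Interferon gamma raises class I transcription through IRF1 and NLRC5, and the promoters carry binding sites for NF-kappaB, interferon regulatory factors and the CREB/ATF family, to which ATF3 belongs.

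Promoter sequences are shown first for 5 of the genes, because the genes that stood apart in SKO livers and those that did not are close relatives. RefSeq gave a promoter on GRCm38.p6, from 250 bases before to 50 bases after the gene start, for 9 of the 10 genes, and H2-Q1 was the one without. Capitals mark the letters GGGATTCCC (kappaB), TGACG (the core of a cAMP response element) or GAAANNGAA (the interferon regulatory factor core) on either strand. H2-K1 (chr17:34000298-34000597, minus strand) stands for the abundant classical genes, H2-Q10 (chr17:35469839-35470138, plus strand) for the gene made by hepatocytes, H2-Q2 (chr17:35342057-35342356, plus strand) and H2-T-ps (chr17:36111627-36111926, minus strand) for the genes highest in SKO, and H2-T23 (chr17:36032652-36032951, minus strand) is the closest relative of H2-T-ps.
H2-K1: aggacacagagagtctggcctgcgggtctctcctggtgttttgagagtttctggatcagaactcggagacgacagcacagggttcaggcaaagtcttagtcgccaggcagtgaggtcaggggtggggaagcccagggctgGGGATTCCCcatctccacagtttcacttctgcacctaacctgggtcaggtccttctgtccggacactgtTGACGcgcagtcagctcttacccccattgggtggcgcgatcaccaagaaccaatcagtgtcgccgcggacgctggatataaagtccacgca
H2-Q10: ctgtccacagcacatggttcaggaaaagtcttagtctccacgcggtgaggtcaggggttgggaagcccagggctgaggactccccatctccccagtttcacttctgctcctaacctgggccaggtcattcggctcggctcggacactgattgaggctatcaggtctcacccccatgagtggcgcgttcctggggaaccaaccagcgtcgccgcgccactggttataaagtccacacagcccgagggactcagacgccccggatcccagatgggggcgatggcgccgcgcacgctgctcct
H2-Q2: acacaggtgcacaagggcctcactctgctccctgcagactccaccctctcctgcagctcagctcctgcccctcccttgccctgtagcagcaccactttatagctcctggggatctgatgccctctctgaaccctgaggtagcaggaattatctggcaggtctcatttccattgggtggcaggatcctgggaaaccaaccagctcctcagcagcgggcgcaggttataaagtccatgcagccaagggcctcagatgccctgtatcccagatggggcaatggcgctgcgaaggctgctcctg
H2-T23: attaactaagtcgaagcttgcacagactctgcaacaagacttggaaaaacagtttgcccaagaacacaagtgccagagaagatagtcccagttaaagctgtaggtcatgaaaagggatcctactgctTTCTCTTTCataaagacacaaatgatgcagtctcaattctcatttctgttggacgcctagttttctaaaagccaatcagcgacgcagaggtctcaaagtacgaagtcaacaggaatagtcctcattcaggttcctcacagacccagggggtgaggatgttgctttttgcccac
H2-T-ps: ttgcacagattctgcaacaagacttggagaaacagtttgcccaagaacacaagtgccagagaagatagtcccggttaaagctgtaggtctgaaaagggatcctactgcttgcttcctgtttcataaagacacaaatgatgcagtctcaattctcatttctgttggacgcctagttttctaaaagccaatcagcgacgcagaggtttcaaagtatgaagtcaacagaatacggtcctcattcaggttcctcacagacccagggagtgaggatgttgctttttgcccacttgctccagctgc

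The kappaB letters were found in H2-K1, H2-D1, H2-Q6 and H2-Q7, 4 of the 9 promoters, and in 0.37% of 27025 mouse promoters of the same length. In H2-K1 they lay 110 bases before the gene start and in H2-D1 170 bases before it. TGACG was found in H2-K1, H2-D1, H2-Q4 and H2-Q7, against 21% of all promoters. The interferon regulatory factor letters GAAANNGAA were found only in H2-T23, among the 9, and in 8.57% of all promoters. Other spellings of this core were not searched, so a promoter without these letters may still hold such a site. The complete cAMP response element TGACGTCA and the AP-1 letters TGANTCA were in none of the 9, against 1.88% and 7.93% of all promoters. H2-Q2 and H2-T-ps held no searched letters but CCAAT, the Y box, which 37.9% of all promoters held, and H2-Q10 held none of the 6. The aligned promoters of H2-T23 and H2-T-ps were 97.5% identical over 281 bases, those of H2-Q6 and H2-Q7 97.7% over 260 and those of H2-K1 and H2-D1 88.3% over 239.

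Total counts per liver were 14710304 to 20030055. SKO 3 and DKO 4 carried 18063 and 20855 Xist counts with 2 and 0 counts of the 4 Y-linked genes examined, whereas the other 10 livers carried at most 19 Xist counts and 2741 to 4294 Y-linked counts, although the study speaks of males. Atf3 had 17 to 39 counts in WT, 259 to 1056 in SKO, and 164, 177, 265 and 5 in DKO 1 to 4, so the reads of 3 DKO libraries left Atf3 above every WT liver. Whether those reads lie in the deleted part of the gene was not tested. Cpt2 was 199 to 250 CPM in WT livers, 109 to 159 in SKO and 99.9 to 125 in DKO. CPM are counts scaled to one library size for all livers, with TMM factors. DKO 4 stood apart as a library: the chi-square of the counts over genes, per degree of freedom, was 194 to 231 in its pairs with the other DKO livers, 27.7 to 33.3 among those livers, and 18.5 to 94.1 between livers of WT or of SKO. It was the highest DKO liver for 8 of the 10 class I genes, and many of the results below are given with and without it. The liver labels were checked with hepatocyte genes such as Alb, whose summed level was 79021 to 98281 CPM in WT livers, 45743 to 71953 in SKO and 43911 to 96697 in DKO. In bulk liver, fewer cells of a type and less RNA per cell cannot be told apart.

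Of the 10 genes, H2-Q1, H2-T-ps and H2-Q2 were higher in each of the 4 SKO livers than in any WT or DKO liver after scaling to library size, H2-Q2 by a narrow margin. H2-Q10 lay above the WT range in all livers of both knockouts, and the abundant H2-K1, H2-D1 and H2-T23 overlapped among the 3 genotypes. In the comparison of SKO with WT, H2-Q1, H2-T-ps, H2-Q2 and H2-Q10 passed the adjusted p threshold of 0.05, all 4 of them higher in SKO, and 32.1% of the 14261 genes tested passed it, 16.7% higher and 15.4% lower. Of the 8 genes kept for DKO with WT, 0 passed, beside 10.5% of the 14448 genes tested in either direction and 6.06% higher. DESeq2 called 1 of them and 1 was under an unadjusted p of 0.05. Of the 10 genes in DKO with SKO, H2-T-ps passed, lower in DKO, beside 0.0209% of 14363 genes. This call was lost on leaving out any of the 7 livers other than DKO 4, and without DKO 4 H2-T-ps and H2-Q1 passed, beside 0.103% of 14589 genes. Nothing is read from these counts, because the genes were chosen on the same contrasts, and the comparisons share livers.

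**Figure D1:**
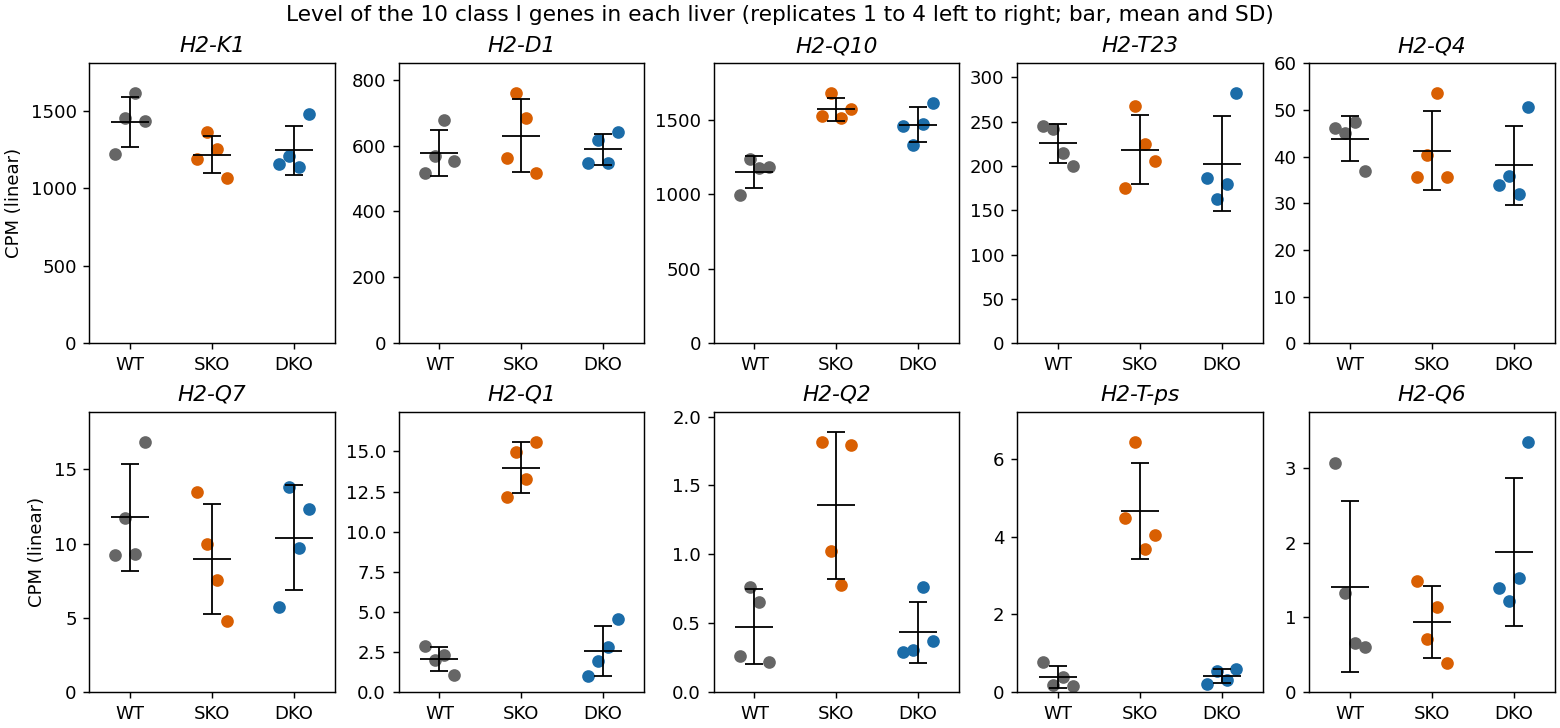
Each panel plots 1 gene, with CPM on a linear axis from 0 and the WT, SKO and DKO livers on the horizontal axis. Points are livers, replicates 1 to 4 from left to right, and the bars are the mean and SD of 4 livers. H2-Q1, H2-T-ps and H2-Q2 are high in the SKO column only, and H2-Q10 is higher in both knockout columns than in WT.

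H2-K1, which encodes a classical heavy chain, had the highest mean level per gene length of the 10 in each genotype. Its counts were 23466, 22982, 24799 and 26035 in WT 1 to 4, 18309, 26609, 24052 and 19033 in SKO 1 to 4, and 24029, 19664, 22342 and 27741 in DKO 1 to 4. The groups overlapped, and the high and low livers were spread over the genotypes. Scaled to library size, H2-K1 was 1429.5 ± 161 CPM in WT livers, 1217 ± 122 in SKO and 1244 ± 158 in DKO (mean ± SD, n = 4). Its log2 fold change was -0.23 (SE 0.14) in SKO against WT, -0.19 (SE 0.16) in DKO against WT and 0.06 (SE 0.18) in DKO against SKO. Without DKO 4 the value of DKO against WT was -0.29 (SE 0.12).

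H2-D1, the other classical gene, was 578 ± 69.7 CPM in WT livers, 630.2 ± 111 in SKO and 588 ± 47.7 in DKO. By liver it had 9921, 8963, 10422 and 10065 counts in WT, 8662, 14837, 13163 and 9186 in SKO, and 11355, 10077, 10774 and 12019 in DKO. SKO 2 and 3 were the highest livers and SKO 1 and 4 were within the WT range in CPM or just under it, so the groups overlapped. The log2 fold changes of H2-D1 were 0.12 (SE 0.16) in SKO and 0.04 (SE 0.14) in DKO against WT.

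H2-T23, the Qa-1 gene, was 225 ± 21.9 CPM in WT livers, 218 ± 39.0 in SKO and 203 ± 53.8 in DKO. DKO 4, at 282 CPM, was the highest of all 12 livers, and DKO 1 to 3 lay at 187, 163 and 179 CPM, each below the lowest WT liver at 199.9 CPM. H2-Q4, a nonclassical gene of the Q cluster, also had its highest DKO level in DKO 4, with 34.0, 35.8 and 32.0 CPM in DKO 1 to 3 and 50.7 CPM in DKO 4, beside 36.9 to 47.5 CPM in WT and 35.6 to 53.6 CPM in SKO. With all 4 DKO livers the log2 fold change against WT was -0.14 (SE 0.19) for H2-T23 and -0.19 (SE 0.16) for H2-Q4. Without DKO 4 these were -0.35 (SE 0.12) and -0.37 (SE 0.11), and both genes then passed the threshold, 2 of 9 kept, beside 17.5% of 14634 genes lower, 18.4% higher and 35.9% in either direction.

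H2-Q10, the secreted class I gene of hepatocytes, was above the WT range in both knockouts. Its counts were 19062, 19571, 18019 and 21518 in WT 1 to 4, 23454, 32775, 28998 and 27939 in SKO 1 to 4, and 30264, 21657, 28852 and 30272 in DKO 1 to 4. Each knockout liver had more counts than each WT liver, and the knockout groups overlapped. In CPM, H2-Q10 was 991 to 1239 in WT livers, 1507 to 1677 in SKO and 1327 to 1612 in DKO, without overlap between WT and either knockout. The fold over WT was 1.37 in SKO (log2 fold change 0.45, SE 0.13) and 1.29 in DKO (0.37, SE 0.14), and DKO against SKO was -0.07 (SE 0.17) on the log2 scale. Of these 3 values, SKO against WT alone passed the threshold in edgeR. That call was lost with a replicate block and on leaving out WT 1, WT 3 or WT 4. DESeq2 called H2-Q10 higher in both SKO and DKO than in WT. Without DKO 4 the log2 fold change of DKO against WT was 0.31 (SE 0.12). H2-Q10 made up 24.6% of the summed FPKM of the 10 genes in WT livers, 32.3% in SKO and 31.4% in DKO. FPKM are fragments scaled by gene length and library size. The hepatocyte marker list had 5 of 7 genes lower in SKO than in WT, beside 15.4% of all genes, and its part in the H2-Q10 value was not tested.

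H2-Q1, a nonclassical gene of the Q cluster next to H2-D1, was low in WT and DKO livers and higher in all SKO livers. It had 55, 31, 35 and 19 counts in WT 1 to 4, 187, 292, 256 and 278 in SKO 1 to 4, and 20, 31, 55 and 86 in DKO 1 to 4. All 4 SKO livers were above the other 8, since the lowest SKO liver, with 187 counts, lay above DKO 4, the highest liver outside SKO, with 86, and WT and DKO overlapped. As CPM, H2-Q1 was 2.04 ± 0.758 in WT livers, 14.0 ± 1.57 in SKO and 2.56 ± 1.54 in DKO. The fold of SKO over WT was 6.83 (log2 fold change 2.77, SE 0.26), the log2 fold change of DKO against SKO was -2.42 (SE 0.39), and that of DKO against WT was 0.34 (SE 0.47). Without DKO 4 the log2 fold change of DKO against SKO was -2.88 (SE 0.31) and that of DKO against WT -0.11 (SE 0.42).

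H2-T-ps, listed as an unprocessed pseudogene of the T cluster, followed the same order at lower counts. It had 15, 3, 6 and 3 counts in WT 1 to 4, 69, 126, 71 and 72 in SKO 1 to 4, and 4, 9, 6 and 11 in DKO 1 to 4. All SKO livers were above all others, with 69 counts as the lowest SKO value and 15 as the highest outside SKO. H2-T-ps was 0.381 ± 0.284 CPM in WT livers, 4.66 ± 1.23 in SKO and 0.409 ± 0.191 in DKO, a log2 fold change of 3.56 (SE 0.43) for SKO against WT and of -3.49 (SE 0.38) for DKO against SKO. The filter on low counts kept H2-T-ps and H2-Q2, with all livers in, only in comparisons that held the SKO livers, and genes kept only through the group where they are high had to differ. For DKO against WT, the fit over all 12 livers gave a log2 fold change of 0.06 for H2-T-ps and -0.09 for H2-Q2.

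H2-Q2, the neighbor of H2-Q1, showed the same direction with little room between the groups. Its counts were 5, 12, 10 and 4 in WT 1 to 4, 28, 20, 15 and 32 in SKO 1 to 4, and 6, 5, 15 and 7 in DKO 1 to 4. SKO 3 and DKO 3 had the same 15 counts, and only scaling to library size set SKO 3 (0.779 CPM) above DKO 3 (0.762 CPM) and WT 2 (0.759 CPM). H2-Q2 was 0.472 ± 0.273 CPM in WT livers, 1.35 ± 0.532 in SKO and 0.433 ± 0.223 in DKO, with log2 fold changes of 1.53 (SE 0.47) for SKO against WT and -1.59 (SE 0.45) for DKO against SKO. Over the 12 livers, all 10 class I genes passed the filter on low counts, and H2-Q1, H2-Q2 and H2-T-ps, 3 of the 10, had all 4 SKO livers above the other 8. The same held for 181 of 14988 genes, or 1.21%, and this again is the pattern on which the genes were chosen.

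H2-Q6 and H2-Q7, neighbors in the Q cluster, were low and spread widely within each genotype. H2-Q7 had 177, 185, 143 and 307 counts in WT, 208, 195, 145 and 85 in SKO, and 119, 226, 191 and 232 in DKO. H2-Q6 had 59, 21, 10 and 11 counts in WT, 23, 14, 22 and 7 in SKO, and 29, 20, 30 and 63 in DKO. Both genes overlapped among all genotypes. In SKO against WT the log2 fold change was -0.40 (SE 0.30) for H2-Q7 and -0.62 (SE 0.56) for H2-Q6. In DKO against WT it was -0.17 (SE 0.29) for H2-Q7 and 0.41 (SE 0.56) for H2-Q6. The H2-Q6 values depended on single livers, since WT 1 and DKO 4, with 59 and 63 counts, stood above their groups. Its DKO against WT value was -0.04 (SE 0.53) without DKO 4, and without WT 1 it was larger than with all livers. Over 15 alternatives fitted per gene, its SKO against WT value was -0.92 to 0.09.

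**Figure D2:**
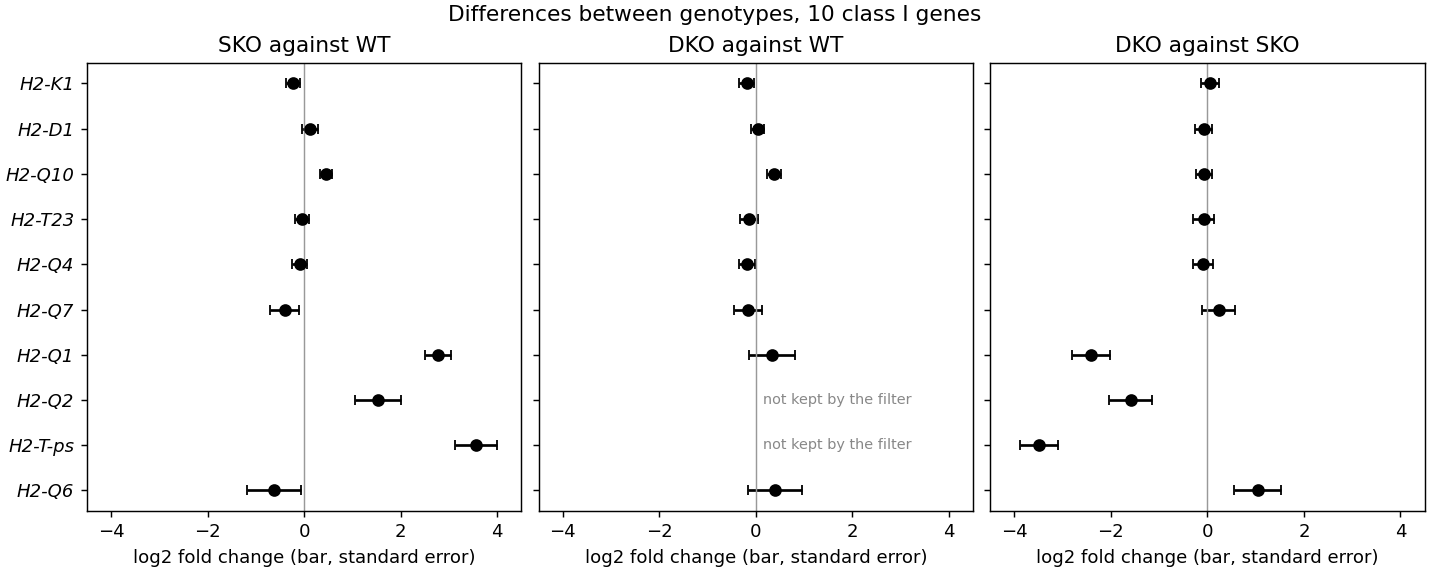
The horizontal axis is the log2 fold change of 1 genotype against another, and each row is a class I gene. Points are fitted values and bars their standard errors. H2-Q1, H2-Q2 and H2-T-ps lie to the right of 0 in SKO against WT (2.77, 1.53 and 3.56) and to the left in DKO against SKO (-2.42, -1.59 and -3.49), and most of the other points are within 0.5 of 0.

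Levels of different genes are compared in FPKM, fragments scaled by gene length and library size, as the authors deposited them. In WT livers the order was H2-K1 at 509 ± 58.8 FPKM, H2-Q10 at 276 ± 26.2, H2-D1 at 235 ± 28.9, H2-T23 at 81.6 ± 7.67, H2-Q4 at 17.7 ± 1.91 and H2-Q7 at 2.89 ± 0.886. H2-Q1, H2-Q6, H2-T-ps and H2-Q2 followed at 0.744, 0.707, 0.373 and 0.227 FPKM, and each of these overlapped with the next. H2-Q10 and H2-D1 overlapped too, while the other neighbors in the WT order did not. In SKO livers H2-Q10, at 372 ± 19.8 FPKM, overlapped with H2-K1 at 428 ± 45.8, and H2-Q1 at 5.05 ± 0.565 and H2-T-ps at 4.52 ± 1.22 stood above H2-Q7 at 2.17 ± 0.899. In DKO livers H2-Q1 was 0.929 ± 0.572 and H2-T-ps 0.396 ± 0.186 FPKM, back among the lowest 4. H2-K1, H2-Q10, H2-D1 and H2-T23 together took 97.3 to 98.5% of the summed FPKM of the 10 genes in every liver, so H2-Q1 and H2-T-ps stayed a small part of class I RNA in SKO as well. The 10 genes took 0.298 to 0.335% of all counts in WT livers, 0.357 to 0.416% in SKO and 0.340 to 0.396% in DKO.

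The 3 genes that were high in SKO are not next to each other as a block. In the deposited gene table, H2-Q1 (ENSMUSG00000079507, 17, 35539381 to 35544075, plus strand) and H2-Q2 (ENSMUSG00000091705, 35561218 to 35565738, plus strand) are 17.1 kb apart, with 0 kept genes between them. H2-T-ps (ENSMUSG00000073405, 36420126 to 36422550, minus strand) lies 854 kb beyond H2-Q2, with 31 kept genes in between, among them H2-Q4, H2-Q6, H2-Q7 and H2-Q10. H2-T23 (ENSMUSG00000067212, 36340665 to 36343747, minus strand) is 76.4 kb from H2-T-ps. The table names no build, and its coordinates do not match GRCm38, which the submitters' processing notes name, so they are printed as deposited. Among the 99 other genes kept between the outermost H2 genes, class I genes aside, 0 had all SKO livers above the other 8, beside 1.21% of all genes, and the same was true of the other class I genes. Of these neighbors, 12 of 93 tested were higher and 13 lower in SKO than in WT, beside 16.7% and 15.4% of all genes, and 9 of 92 were higher and 1 lower in DKO than in WT, beside 6.06% and 4.39%. Without DKO 4, 20 of 94 were higher and 20 lower in DKO than in WT, beside 18.4% and 17.5%. The labels do not give the strain origin of chromosome 17 in any mouse, and a segment that differs between breeding lines cannot be told apart from genotype here.

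**Figure D3:**
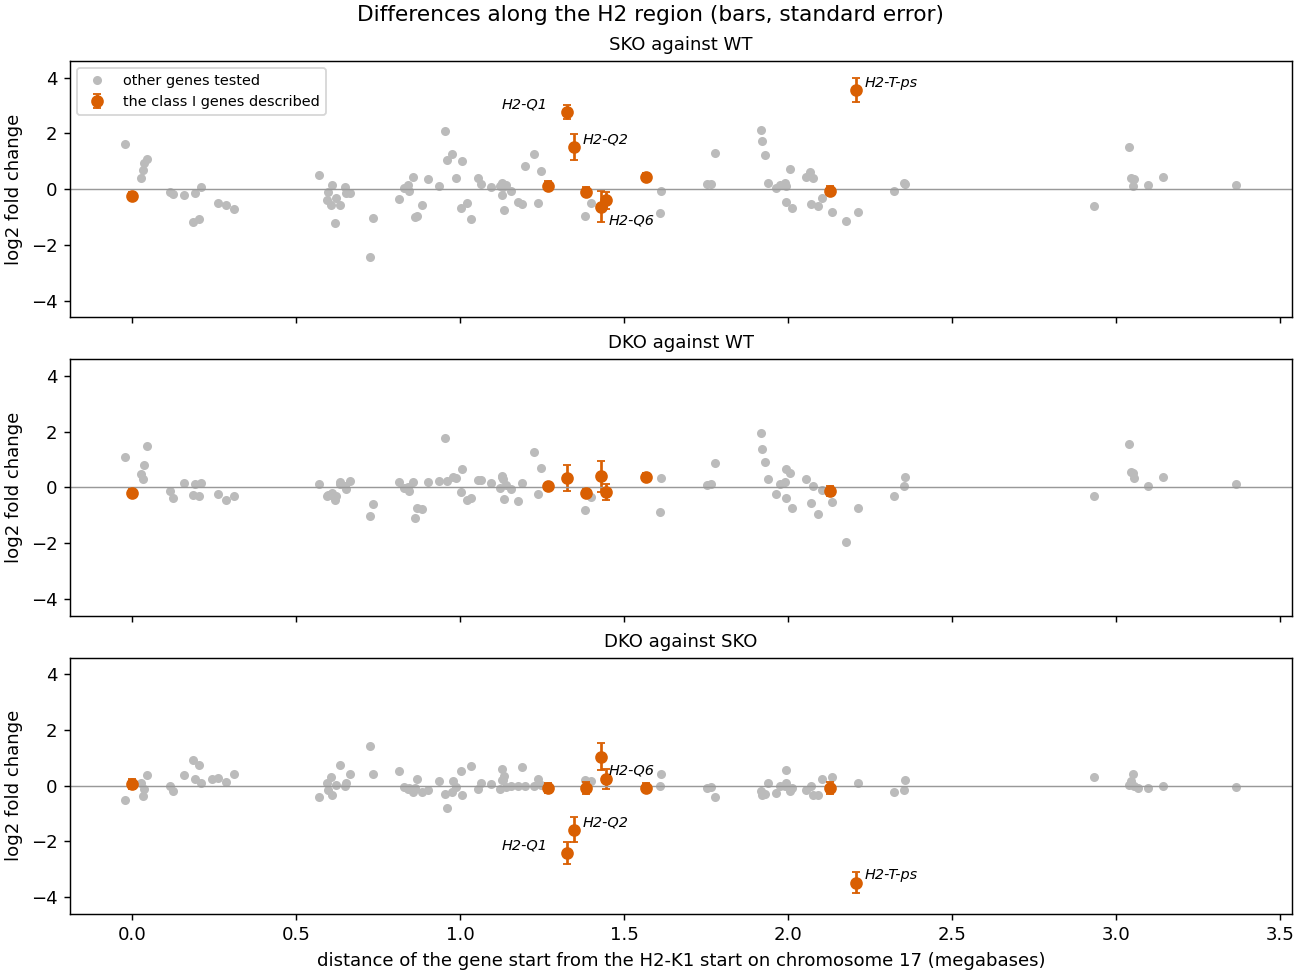
The horizontal axis is the distance of each gene start from that of H2-K1 in megabases, the vertical axis the log2 fold change, with 1 panel per comparison. Orange points are the class I genes described, with standard errors, and gray points the other genes tested in the region. H2-Q1 (2.77) and H2-T-ps (3.56) stand above all gray points in SKO against WT.

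Class I genes share much of their sequence, and read assignment between them is uncertain. Among GENCODE transcripts on GRCm38, 51.6% of the 31-base words of H2-T-ps occurred in no other gene. Of its words, 35.5% occurred also in H2-T23, 15.8% in H2-Q1 and 14.2% in H2-Q10. For H2-Q1 the unique share was 75.9%, with 15.9% shared with H2-Q2, and for H2-Q2 it was 67.2%, with 22.0% shared with H2-Q1. Of words of 100 bases, 91.9% in H2-Q1, 94.9% in H2-Q2 and 94.6% in H2-T-ps were unique. The least unique was H2-Q4, with 47.0% of 31-base words and 85.9% of 100-base words. The counts of H2-T-ps were 0.0785 to 0.318% of those of H2-T23 in WT livers, 1.64 to 2.56% in SKO and 0.103 to 0.338% in DKO. The H2-Q2 counts were 5.86 to 15.0% of those of H2-Q1 in SKO, and 9.09 to 38.7% in WT and 8.14 to 30.0% in DKO. The part of shared reads in the H2-Q1, H2-Q2 and H2-T-ps values was not tested.

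Lists of other genes around antigen presentation held more genes that were lower in SKO livers than higher. Of 70 tested genes on 6 such lists, 26 were lower and 4 higher in SKO than in WT and 40 did not pass, beside 15.4% of all genes lower and 16.7% higher, with a median log2 fold change of -0.49 beside 0.03 over all 14261 genes. In DKO against WT, Calr was the 1 gene of 70 that passed in edgeR with all livers, lower in DKO, beside 4.39% of all genes lower and 10.5% in either direction, and it was lost on leaving out any liver but DKO 4. DESeq2 called 11, beside 18.4% of all genes. Without DKO 4, 38 of 71 were lower and 7 higher, beside 17.5% of all genes lower and 18.4% higher, with a median of -0.73 beside 0.02 over all genes. In DKO against SKO, 0 of 70 passed in edgeR, beside 0.0209% of all genes, with 8 under an unadjusted p of 0.05, and 1 passed in DESeq2, beside 0.68%. These lists were written with earlier results of these data known.

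The peptide supply and loading list, the immunoproteasome, transporter and chaperone genes that fill class I molecules, had 10 of 16 genes lower in SKO than in WT (15.4% of all genes) and 0 higher (16.7%), at a median log2 fold change of -0.57. B2m, which encodes the light chain common to all class I molecules, was 1363, 1302, 1482 and 1329.7 CPM in WT 1 to 4, 649, 649, 654 and 676 in SKO 1 to 4, and 718, 723, 752 and 1481 in DKO 1 to 4. All SKO livers and DKO 1 to 3 were below every WT liver, and DKO 4 was within the WT range. The B2m log2 fold change of SKO against WT was -1.06 (SE 0.12, adjusted p = 6.3e-05 in edgeR's quasi-likelihood test). Psmb9 and Psmb8, inducible proteasome subunits, changed by -1.16 (SE 0.15) and -1.06 (SE 0.16), and Erap1, which trims peptides, by -1.10 (SE 0.14), all past the threshold. Without DKO 4, 13 of the 16 genes were lower in DKO than in WT (17.5% of all genes), B2m by -0.90 (SE 0.11), and with all 4 DKO livers 1 was, Calr, by -0.94 (SE 0.24).

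The interferon gamma GTPases, cell-autonomous defense genes that serve as readouts of interferon gamma signaling, had 9 of 15 genes lower in SKO than in WT, beside 15.4% of all genes, and 0 higher, at a median of -1.47. Examples were Irgm1 at -1.56 (SE 0.14), Ifi47 at -2.26 (SE 0.24), Igtp at -1.81 (SE 0.22) and Iigp1 at -1.58 (SE 0.20). In DKO against WT 0 of the 15 passed in edgeR with all livers, beside 4.39% of all genes lower and 6.06% higher, at a median of -0.42 with 2 under an unadjusted p of 0.05, and DESeq2, which gave an adjusted p for 13, called 1 lower, beside 8.64% of all genes. Without DKO 4, 9 of 15 were lower, beside 17.5% of all genes, at a median of -1.23. Of the 14 regulators of class I transcription tested, 3 were lower in SKO than in WT and 2 higher, beside 15.4% and 16.7% of all genes. Irf1 and Irf2 were among the lower, by -0.96 (SE 0.21) and -0.77 (SE 0.16). Rela and Atf1 were the 2 higher, by 0.71 (SE 0.13) and 0.44 (SE 0.14). In DKO against WT 0 of the 14 passed in edgeR with all livers, beside 10.5% of all genes. There 5 were under an unadjusted p of 0.05, and DESeq2 called 2 higher, beside 9.72%. Without DKO 4, 3 were lower and 4 higher, beside 17.5% and 18.4% of all genes. Nlrc5, the class I transactivator, was 43.9 to 61.9 CPM in WT livers, 28.7 to 56.4 in SKO and 37.9 to 56.0 in DKO, with overlap among the groups.

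Of the 7 tested class I genes of the region outside the 10, H2-T22 and H2-T10 were lower in SKO than in WT, by -0.83 (SE 0.14) and -0.82 (SE 0.25), and H2-K2 was higher, by 1.61 (SE 0.38), 2 and 1 of 7 beside 15.4% and 16.7% of all genes. H2-K2 was 3.80 to 9.23 CPM in WT livers, 11.1 to 34.5 in SKO and 8.21 to 18.7 in DKO, so its DKO livers overlapped with both other groups. In DKO against WT 0 of the 7 passed in edgeR with all livers, beside 10.5% of all genes, with 2 under an unadjusted p of 0.05, and DESeq2 called 1 higher and 1 lower, beside 9.72% and 8.64%. Without DKO 4, 3 of 8 were lower, beside 17.5% of all genes, among them H2-T22 by -1.10 (SE 0.11) and H2-T10 by -1.13 (SE 0.30), and 2 were higher, beside 18.4%. The class I-like genes elsewhere in the genome had 2 of 11 genes lower in SKO than in WT, Raet1d by -2.91 (SE 0.31) and Mr1 by -1.28 (SE 0.31), and 1 higher, Fcgrt, by 0.63 (SE 0.15), shares near or under the 15.4% and 16.7% of all genes. With all livers, 0 of the 11 passed in edgeR in DKO against WT, beside 10.5% of all genes, with 3 under an unadjusted p of 0.05 and a median of -0.26, and DESeq2, which gave an adjusted p for 10, called 1 higher, beside 9.72%. Without DKO 4, 5 of 11 were lower, beside 17.5% of all genes, among them Raet1d by -1.89 (SE 0.18) and Mr1 by -1.08 (SE 0.28), and 1 was higher, beside 18.4%, Fcgrt by 0.35 (SE 0.10), at a median of -0.44. Of 7 tested genes on the class II list, which holds class II chains, the invariant chain gene Cd74 and the transactivator Ciita, 0 passed in SKO against WT, beside 32.1% of all genes in edgeR and 34.1% in DESeq2, with 0 under an unadjusted p of 0.05 and a median of -0.49. In DKO against WT 0 of these 7 passed with all livers, beside 10.5% of all genes in edgeR and 18.4% in DESeq2, with 0 under an unadjusted p of 0.05 and a median of -0.31, and 5 of 7 were lower without DKO 4, beside 17.5% of all genes.

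**Figure D4:**
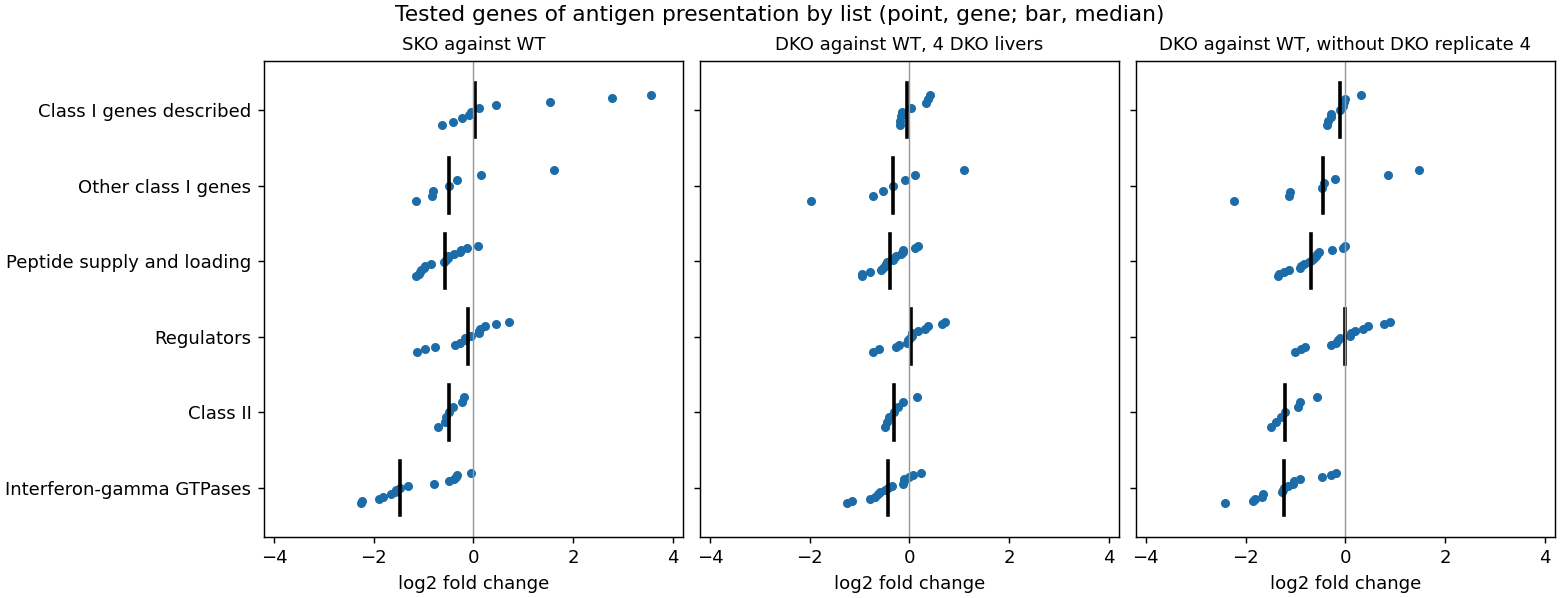
The horizontal axis is the log2 fold change against WT. Each point is a tested gene of the list named on the vertical axis, and the black bar is the median of the list. In the left panel the interferon gamma GTPases have a median of -1.47 and peptide supply and loading one of -0.57, whereas the class I genes described have one of 0.04. The middle panel uses all 4 DKO livers and the right panel leaves out DKO 4.

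Genes whose level over the 12 livers was most like that of a class I gene were ranked by Pearson's r of log2 CPM, as a description, since the livers share genotype, depth and tissue makeup. For H2-Q1 these were Lgals3, encoding galectin-3 (r = 0.95), Apobr, encoding an apolipoprotein B receptor (r = 0.91), and Mfge8 (r = 0.88). For H2-T-ps, Lgals3 (r = 0.94) and Apobr (r = 0.92) ranked first too, followed by Gm20560 (r = 0.90), and for H2-Q2 the leaders were Gm4202 (r = 0.85), Lgals3 (r = 0.84) and Coro1c (r = 0.82). Mean Lgals3 was 4.13 CPM in WT livers, 20.8 in SKO and 5.80 in DKO. H2-Q1 and H2-T-ps had an r of 0.96 with each other, and H2-Q1 and H2-Q2 one of 0.79. Both pairs share part of their sequence. H2-K1 was most like Acaa2 (r = 0.93), a thiolase of mitochondrial fatty acid oxidation, H2-D1 like Rhbdd2 (r = 0.89), H2-Q10 like Timm44 (r = 0.92), H2-T23 like Milr1 (r = 0.93), H2-Q4 like Icos (r = 0.95), H2-Q7 like Adam8 (r = 0.91) and H2-Q6 like Trim30b (r = 0.85).

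Markers of other liver cells were summed because blood cells and lining cells also make class I RNA. The 9 macrophage markers summed to 226 to 463 CPM in WT livers, 211 to 519 in SKO and 129.9 to 457 in DKO, with none at 0. In SKO against WT 1 of the 9 passed, beside 32.1% of all genes. This was Cd68, at 5.66 to 11.1 CPM in WT livers, 24.2 to 54.7 in SKO and 9.48 to 25.0 in DKO, in the same direction as H2-Q1. In DKO against WT 1 passed, beside 10.5% of all genes, Marco at -1.95 (SE 0.45), and in DKO against SKO 0 passed in edgeR, beside 0.0209%, with 2 under an unadjusted p of 0.05 and a median log2 fold change of -0.45 over the 9. Clec4f, a defining Kupffer cell marker, was 66.0 to 115 CPM in WT livers, 52.4 to 102 in SKO and 39.6 to 139 in DKO. Adgre1 was 6.49 to 16.2 CPM in WT livers, 5.22 to 20.9 in SKO and 2.85 to 16.6 in DKO, so both overlapped among the groups. The 11 T and natural killer cell markers summed to 8.63 to 19.4 CPM in WT livers, 7.11 to 17.4 in SKO and 5.93 to 22.7 in DKO, with Cd8b1 at 0 in SKO, and the 4 neutrophil markers to at most 1.66 CPM, with Ly6g at 0 in WT and DKO. The 5 stellate cell markers summed to 156 to 188 CPM in WT livers, 214 to 306 in SKO and 201 to 252 in DKO, and Dcn, 1 of the 5, passed in SKO against WT, higher in SKO beside 16.7% of all genes. The 4 B cell, 5 dendritic cell and 6 endothelial markers overlapped in their sums among the genotypes. The 4 cholangiocyte markers summed to 6.37 to 12.0 CPM in WT livers, 2.55 to 3.63 in SKO and 2.57 to 4.42 in DKO. Of the 3 cholangiocyte markers tested, Sox9 passed, lower in SKO and in DKO than in WT, beside 15.4% and 4.39% of all genes. The part of cell makeup in the H2-Q1, H2-Q2 and H2-T-ps values was not tested.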

How the data were processed

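Raw counts of reads per gene were deposited by the authors for 12 livers, with no normalization. The authors also deposited FPKM per gene, scaled by gene length and library size, and these were used only to compare levels between genes. The submitters' processing notes name HISAT2 and GRCm38, and the counting program, annotation release and strand setting are not given in the sources used here. The study's own lists of fold changes and p-values were not used.

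Genotypes were compared in pairs with edgeR 4.0.16 in R 4.3.3: filterByExpr, TMM scaling within the 8 livers compared and quasi-likelihood tests. Two-sided p-values were adjusted over all genes tested (Benjamini-Hochberg), with a threshold of 0.05. The standard error is the log2 fold change divided by the square root of F. CPM used TMM scaling over the 12 livers, and correlations used log2 CPM with a prior count of 2. The test was checked on simulated counts. P-values measure only the spread between these livers.

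The class I genes and all lists were chosen with earlier results of these data known, so neither is independent support. All 10 class I genes are named. Of each antigen presentation list, genes past the threshold are named, at most 4 per comparison by smallest p, and up to 2 others by highest level. For each class I gene up to 3 genes are named by correlation. Neighbors of the region past the threshold are counted but not named, and cell markers are named only in part. Values of Atf1, Nlrc5, Cd68, Marco, Clec4f, Adgre1 and Lgals3 are given outside this rule, chosen after they had been seen, and 1 gene that the rule covers is not reported here. No pair of libraries within a genotype agreed within sampling noise, with chi-square values of at least 18.5 per degree of freedom. Alternatives were DESeq2 1.42.0, RLE scaling, other filters, one fit over all livers, a replicate block, leaving out each liver, livers with Y-linked counts only, and class I counts summed by subregion.

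Shared sequence was counted as words of 31 and 100 bases in GENCODE transcripts on GRCm38. Promoters came from RefSeq on GRCm38.p6 and were searched on both strands for the 6 sets of letters spelled out in the results. Pairs of promoters were aligned globally, with no cost for gaps at the ends. TGACG is part of TGACGTCA, so the response element would count under both. A match describes letters, not binding.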

Additional observations from a re-analysis of the deposited data

Results flagged for a closer look

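H2-Q6, the low nonclassical gene of the Q cluster, was flagged in DKO livers because 1 liver lay far from the other 3. DKO 4 had 3.35 CPM and the others 1.23 to 1.52 CPM, a gap of 0.859 of the range of the group, above Dixon's critical value for 4 livers. It was 1 of 30 groups of 4 livers examined, and chance flags about 1 in 20.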

How the results depend on the processing

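Depth limits the low genes H2-T-ps, H2-Q2 and H2-Q6, with 27, 31 and 101 counts over the 4 WT livers, and shared sequence makes all class I counts uncertain. The labels' replicate numbers did not pair the livers, with correlations of -0.34 to 0.09 between same-numbered livers. With the replicate block, 2 of the 10 class I genes passed in SKO against WT in place of 4 (28.8% of all genes in place of 32.1%), and 0 in DKO against SKO in place of 1 (0% of all genes in place of 0.0209%).

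In SKO against WT, leaving out each liver gave 2 to 4 class I genes (2 without WT 1 or WT 4), with 24.8% to 32.5% of all genes passing. H2-Q1 (log2 fold change 2.54 to 2.98) and H2-T-ps (3.29 to 4.19) passed in 15 of 15 alternatives fitted per gene, H2-Q10 in 11 of 15 and H2-Q2 in 9 of 14. Among these alternatives, livers with Y-linked counts only and leaving out SKO 3 are the same fit in this comparison. Summed by subregion, the H2-T genes gave -0.23 in place of the H2-T-ps value. That sum holds H2-T23 and H2-T22, at -0.05 and -0.83 on their own.

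In DKO against WT, where 10.5% of all genes passed, DESeq2 called 1 class I gene in place of 0 (18.4% of all genes), livers with Y-linked counts only gave 2 (35.9%), and leaving out each liver gave 0 to 2 (2 without DKO 4, with 35.9% of all genes, and 0 without any other, with 1.63% to 4.81%). Of the antigen presentation genes 1 passed, and 11 with DESeq2, 5 without a filter (5.88% of all genes) and 7 in the fit over 12 livers (11.6%). With Y-linked counts only 45 passed, and leaving out each liver gave 0 to 45 (45 without DKO 4, 0 without any other). In DKO against WT, livers with Y-linked counts only and leaving out DKO 4 are the same fit. In DKO against SKO, 2 class I genes passed with DESeq2 (0.68% of all genes), without a filter (0.123%) and with Y-linked counts only (0.146%), in place of 1, and 0 to 2 leaving out each liver (2 without DKO 4, with 0.103% of all genes, and 0 without any other, with 0% to 0.0136%). DESeq2 called 1 antigen presentation gene there in place of 0. H2-T-ps passed in 7 of 15 alternatives and H2-Q1 in 4 of 15, with log2 fold changes of -3.84 to -3.25 and -2.90 to -2.14. The cause of these shifts was not tested.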
